A study of Mus musculus with 4 samples.

Results

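The genes described here are 10 that mark a subset of mesenchymal cells known as Sca1-high or adventitial-type progenitors: Ly6a (which encodes Sca-1), Ly6c1, Pi16, Cd34, Dpp4, Cd55, Cd248, Sema3c, Efhd1 and Thy1. They were taken by symbol from the gene tables of 4 single-cell libraries of mouse heart, and each symbol had 1 row among the 28001 features common to all 4 libraries. The name progenitor surface genes fits most of them. Efhd1, however, encodes a mitochondrial calcium-binding protein and Sema3c a secreted guidance factor.

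The libraries were made from hearts of C57BL/6 mice with the Chromium droplet method, which counts messenger RNA molecules at their 3′ end by unique molecular identifiers (UMIs). In the first were cells with tdTomato from mice of the Hic1 CreERT2 tdTomato strain, from 3 pooled hearts taken 7 days after ligation of the left anterior descending coronary artery (LAD), a model of myocardial infarction. The second held the same kind of cells from 3 pooled undamaged hearts. In both, a Cre recombinase that needs tamoxifen is made where Hic1 is expressed, so tdTomato stays in cells that used Hic1 at induction and in their descendants. The third held Hic1 Citrine+ cells of undamaged hearts, in which the reporter follows present use of Hic1, with 3 hearts told apart by hashtags on antibodies. In the fourth were PDGFRa H2BGFP+ cells (allele B6.129S4-Pdgfratm11(EGFP)Sor/J, a nuclear reporter of Pdgfra), with 4 hashed hearts, 2 undamaged and 2 at 7 days after ligation. Animal ages are not given in the sources used here. The labels do not say which PDGFRa hashtags were ligated, so these 4 hearts are given one by one. Each group was 1 library, cells were chosen by a reporter, and no comparison between libraries has a replicate.

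After filtering, 4263 ligated tdTomato, 2786 undamaged tdTomato, 10838 citrine and 12567 PDGFRa cells were left. Their median UMI counts were 3668, 3453, 8038.5 and 7729. Clusters made without the 10 genes were named from markers. Fibroblast-like cells, with collagen genes, Dcn and Pdgfra, were 73.4%, 87.0%, 97.2% and 99.2% of the cells in that order. Pericyte-like cells, with Rgs5, Kcnj8 and Vtn, were 18.3%, 6.46% and 1.74% of the first 3 libraries, and no PDGFRa cluster took that name. A ligated cluster of 26 cells with markers of both classes stayed unnamed, by a threshold set after seeing the data. The ligated and undamaged tdTomato libraries shared 8 cell barcodes, and the citrine and PDGFRa libraries shared 36. Levels are on the counts-per-million scale (CPM), a gene's UMIs over the UMI total of its class, and intervals are exact 95% intervals that cover counting error only.

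Sca-1 is a small protein held to the outer membrane by a lipid anchor. In mice it is a classical marker of haematopoietic stem cells and of mesenchymal cells that can form fibroblasts or fat. Fibroblasts that use Pi16 and Dpp4 lie in the outer layer around vessels in many mouse tissues and are regarded as a reserve for more specialised fibroblasts. Cd34 and Ly6a are also used by endothelial cells, and Thy1 by pericytes, so none of these genes names a cell type alone.

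In the genome (GRCm38, GENCODE vM21), Ly6a and Ly6c1 are neighbours in the Ly6 cluster, at chr15:74994877-74998031 and chr15:75044018-75048830, both on the minus strand. Pi16 lies at chr17:29317680-29330593 (plus), Dpp4 at chr2:62330073-62412231 (minus) and Efhd1 at chr1:87264363-87310839 (plus). Cd34 at chr1:194938819-194961279 (plus) and Cd55 at chr1:130439027-130462744 (minus) share chromosome 1 with Efhd1. Sema3c lies at chr5:17574281-17730268 (plus), Thy1 at chr9:44043384-44048579 (plus) and Cd248 at chr19:5068078-5070682 (plus). In the last 400 bases of each transcript, where this method reads, 65 of the 341 runs of 60 bases of Ly6c1 also occur in a transcript of Ly6c2, and the other 9 genes share none. Ly6c2 itself had 2.63, 0.552, 0.48 and 0.09 CPM in the fibroblast-like cells of the 4 libraries, against Ly6c1 levels of 96.8, 77.3, 140 and 65.0 CPM. Genes on the opposite strand overlap Pi16, Cd34, Dpp4, Cd55 and Efhd1, and whether strand was used in counting is not given in the sources used here.

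Promoters are shown for the 3 genes that were lower after ligation, as described further on, and for Ly6c1, the member most closely linked with Ly6a across cells. They are RefSeq sequences of GRCm38.p6, from 250 bases before to 50 after the transcription start. Capitals mark matches on either strand to 3 common promoter motifs. These are the letters TATAAA that bind the general factor TBP, the letters CCAAT known from the factor NF-Y, and the GC box with the letters GGGCGG. The AP-1 motif, spelled TGANTCA, was also searched.
Ly6c1, chr15:75048788-75049087, minus strand: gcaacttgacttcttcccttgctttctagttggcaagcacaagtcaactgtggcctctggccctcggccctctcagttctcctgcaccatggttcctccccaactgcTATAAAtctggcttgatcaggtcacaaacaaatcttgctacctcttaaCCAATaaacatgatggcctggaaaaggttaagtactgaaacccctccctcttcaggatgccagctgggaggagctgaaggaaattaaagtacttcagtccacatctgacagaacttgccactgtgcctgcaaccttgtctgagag
Pi16, chr17:29318632-29318931, plus strand: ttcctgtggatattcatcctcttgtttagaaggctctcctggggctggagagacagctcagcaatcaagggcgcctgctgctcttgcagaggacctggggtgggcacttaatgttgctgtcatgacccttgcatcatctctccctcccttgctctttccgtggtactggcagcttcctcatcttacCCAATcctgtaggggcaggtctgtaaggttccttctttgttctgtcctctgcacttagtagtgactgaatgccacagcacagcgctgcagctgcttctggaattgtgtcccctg
Dpp4, chr2:62412182-62412481, minus strand: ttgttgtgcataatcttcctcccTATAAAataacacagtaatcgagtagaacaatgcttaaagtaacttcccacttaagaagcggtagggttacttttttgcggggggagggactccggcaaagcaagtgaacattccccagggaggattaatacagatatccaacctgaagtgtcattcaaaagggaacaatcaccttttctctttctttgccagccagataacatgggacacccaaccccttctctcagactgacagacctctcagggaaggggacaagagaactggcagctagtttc
Efhd1, chr1:87264103-87264402, plus strand: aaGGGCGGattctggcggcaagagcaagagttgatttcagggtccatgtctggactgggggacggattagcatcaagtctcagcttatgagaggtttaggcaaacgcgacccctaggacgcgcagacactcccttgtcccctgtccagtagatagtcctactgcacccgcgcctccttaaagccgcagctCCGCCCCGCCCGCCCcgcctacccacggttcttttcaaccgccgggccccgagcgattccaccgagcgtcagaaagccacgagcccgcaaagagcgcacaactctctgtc

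The promoters were unlike each other in these letters. Ly6c1 held 1 TATAAA and 1 CCAAT, Pi16 held 1 CCAAT, and Dpp4 held 1 TATAAA. Efhd1 held 4 matches to GGGCGG, 1 of them on the plus strand at the start of the window and 3 overlapping in a run on the opposite strand, with 24 CpG dinucleotides and 60.7% GC. Pi16 had 3 CpG, Dpp4 4 and Ly6c1 1, against a median of 7 over 32851 promoters of the same length. Over those promoters, 13.6% held TATAAA, 37.4% CCAAT, 35.7% GGGCGG and 7.81% TGANTCA. No TGANTCA stood in the windows of the 7 members that matched by symbol, namely these 4 and Cd34, Cd55 and Sema3c. The start that RefSeq lists for Pi16 lies 1202 bases from the gene's start in GENCODE vM21, so its window is not the region before the first annotated exon.

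Across fibroblast-like cells the 10 genes were found in every library, and 9 of 10 had their highest level in the citrine library (see the plot of levels by library and class). Ly6a reached 791 CPM in ligated tdTomato cells (777 to 806), 719 in undamaged tdTomato cells (701 to 736), 1092 in citrine cells and 428 in PDGFRa cells. Its neighbour Ly6c1, a related lipid-anchored protein best known from monocytes and vessels, had the levels given above and the same order. For both genes the citrine cells stood highest and the PDGFRa cells lowest. Pi16, a peptidase inhibitor-like protein of the CAP family, had 799 CPM in ligated, 1287 in undamaged, 1600.1 in citrine and 578 in PDGFRa cells. Cd34, a sialomucin, had 847, 1032, 1045 and 521 CPM in the same order. The intervals of Cd34 in undamaged tdTomato cells (1011 to 1053) and citrine cells (1038 to 1051) overlapped.

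Dpp4, a surface peptidase that trims chemokines and other peptides, was rare, at 4.99 CPM in ligated, 13.4 in undamaged, 20.3 in citrine and 13.3 in PDGFRa cells. Cd55, which protects cells from complement, had 152, 213, 322 and 222 CPM in that order, and Cd248 (endosialin) had 68.3, 80.7, 211 and 88.8 CPM. For these 3 genes the ligated library was the lowest. Sema3c had 36.5, 53.8, 108 and 38.2 CPM, and its intervals in ligated (33.5 to 39.8) and PDGFRa cells (37.1 to 39.4) overlapped. Efhd1 had 35.9, 66.4, 88.2 and 32.1 CPM. Thy1, which encodes the surface marker CD90, was the exception, with 40.9, 47.5, 33.2 and 19.2 CPM and the undamaged tdTomato library highest. In all, the PDGFRa library was lowest for 6 genes and the ligated tdTomato library for 4. The citrine and PDGFRa cells had more UMIs, with medians of 8105 and 7697.5 per fibroblast-like cell, against 4009 in ligated and 3654 in undamaged tdTomato cells.

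**Figure D1:**
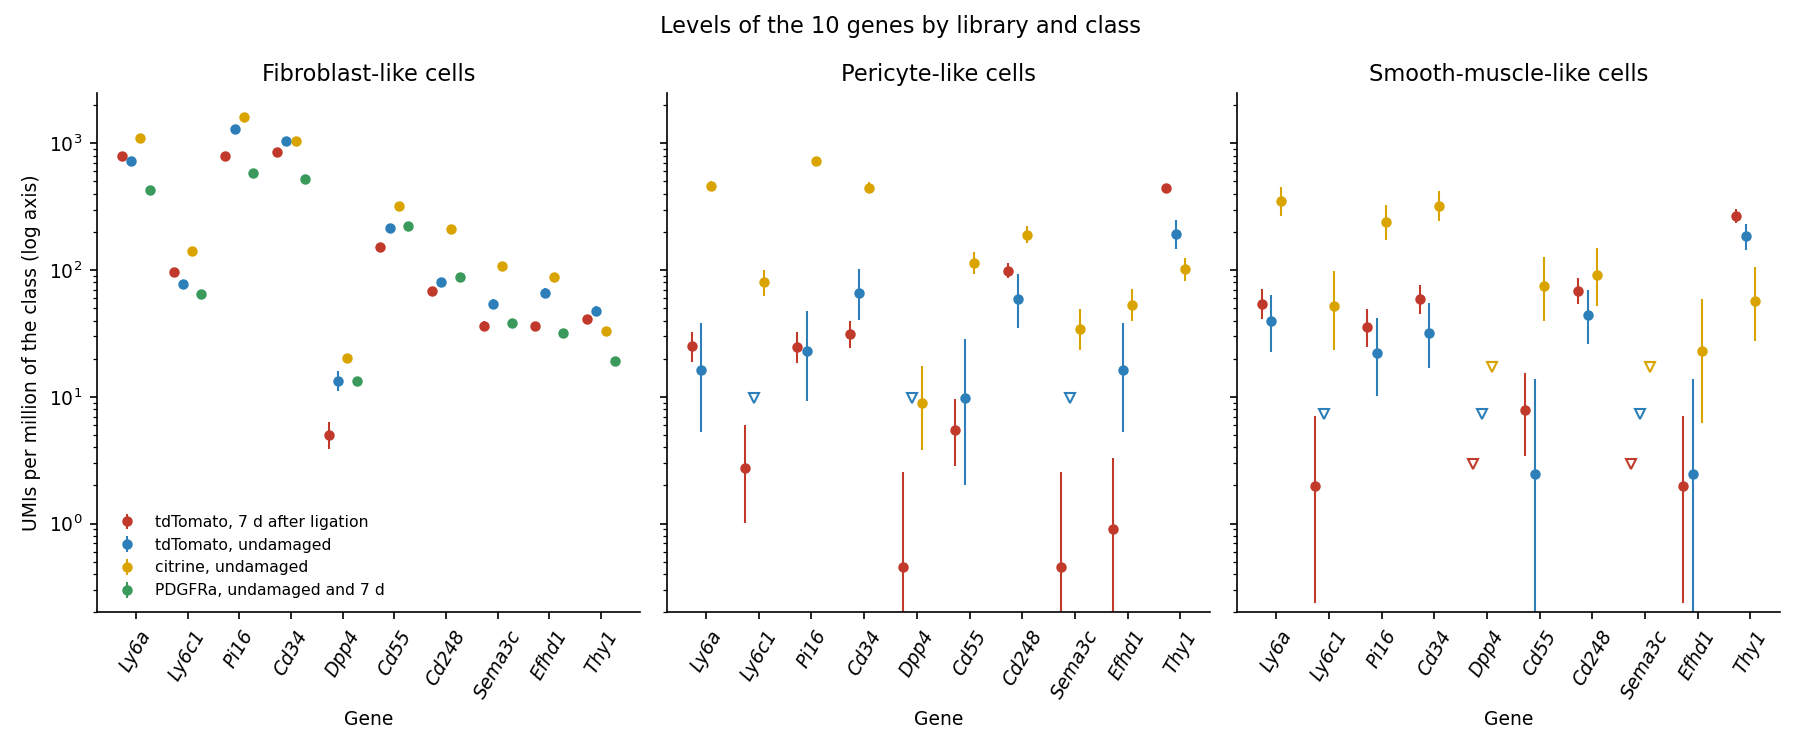
Level of each gene (CPM, log axis) by library and cell class, with exact 95% intervals for counts; open triangles mark sums of 0 UMIs, drawn at the level of 3 counts. Fibroblast-like levels of Ly6a lie between 428 and 1092 CPM, while Thy1 is higher in pericyte-like than in fibroblast-like cells of the 3 libraries that hold them.

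With every cell thinned to 2000 UMIs, Ly6a was seen in 50.8% of ligated, 46.8% of undamaged, 66.2% of citrine and 38.6% of PDGFRa fibroblast-like cells. Without thinning these shares were 62.6%, 55.4%, 85.0% and 60.8%. Thinned shares of Pi16 were 48.5%, 53.7%, 65.9% and 45.6%, and those of Cd34 were 70.6%, 77.7%, 77.1% and 59.2%. These 3 genes were thus seen in a large part of all fibroblast-like cells at this depth. Dpp4 was seen in 1.07%, 1.81%, 2.77% and 2.90%, against 1.79%, 3.55%, 9.37% and 7.51% without thinning. As a background, Ly6a was seen in 4.06% of 493 ligated and 7.14% of 28 undamaged thinned tdTomato pericyte-like cells. Thinning to a fixed number of UMIs left out cells below it, so 2991, 2208, 10350 and 12334 fibroblast-like cells entered.

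In pericyte-like and smooth-muscle-like tdTomato cells 8 of the 10 genes stood no higher, relative to fibroblast-like cells, than the markers of fibroblasts did; Thy1 and Cd248 did. In pericyte-like cells the 10 fibroblast markers stood at 2.26% to 31.6% of their fibroblast-like level in the ligated library and at 4.11% to 30.7% in the undamaged one. In pericyte-like cells Thy1 had 442 CPM in the ligated library, 193 in the undamaged tdTomato library and 102 in the citrine library, each above the fibroblast-like level of its library. Cd248 had 98.7, 59.0 and 190 CPM. Ly6a had 25.1 and 16.4 CPM in ligated and undamaged pericyte-like cells, Pi16 24.7 and 22.9 CPM, and Cd34 31.1 and 65.5 CPM. In smooth-muscle-like cells Thy1 had 267 CPM in the ligated and 185 CPM in the undamaged tdTomato library. The citrine pericyte-like cells were different, with 461 CPM of Ly6a and 728 of Pi16. There, however, fibroblast markers stood at 32.3% to 58.0% of their fibroblast-like level, 178 of the 186 hashtagged cells came from heart 2, and finer clustering left 28.8 CPM of Ly6a.

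A cluster of 13 endothelial-like cells in the undamaged tdTomato library gave a view of the members in another cell type that is known to use Sca-1. It held 70 UMIs of Ly6a (2729 CPM, 2127 to 3447), 54 of Ly6c1 (2105 CPM) and 18 of Cd34 (702 CPM). Pi16, Dpp4, Cd248, Sema3c, Efhd1 and Thy1 had 0 UMIs, with a limit of 117 CPM for 3 counts. This limit lies below the fibroblast-like level of Pi16 and above that of the other 5, so only for Pi16 could a fibroblast-like level have been seen.

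Within fibroblast-like cells, detection of the members was compared pair by pair. In all 45 pairs, and in each of the 4 libraries, cells with a UMI of 1 gene held the other more often than cells without it. This was after thinning to 2000 UMIs. The same count was not made for pairs of other genes, so it does not set the members apart. Among cells with Ly6c1, 91.4% of ligated, 92.2% of undamaged, 89.9% of citrine and 83.9% of PDGFRa cells also held Ly6a. Among cells without Ly6c1 these shares were 45.8%, 42.2%, 61.7% and 34.0%. Ly6c1 was thus seldom seen apart from Ly6a. The few Dpp4+ cells, 32, 40, 287 and 358 in the 4 libraries, held Pi16 in 90.6%, 95%, 94.1% and 77.9%, against 48.0%, 53.0%, 65.1% and 44.6% of the cells without Dpp4. Sema3c was in 37.5%, 35.0%, 41.5% and 26.3% of the Dpp4+ cells, against 5.27%, 6.69%, 10.3% and 5.15% of the others. The link between Cd34 and Thy1 was weak, and Thy1 was in 6.68%, 8.22%, 5.74% and 3.31% of Cd34+ cells and in 5.0%, 4.47%, 2.36% and 2.58% of the others.

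**Figure D2:**
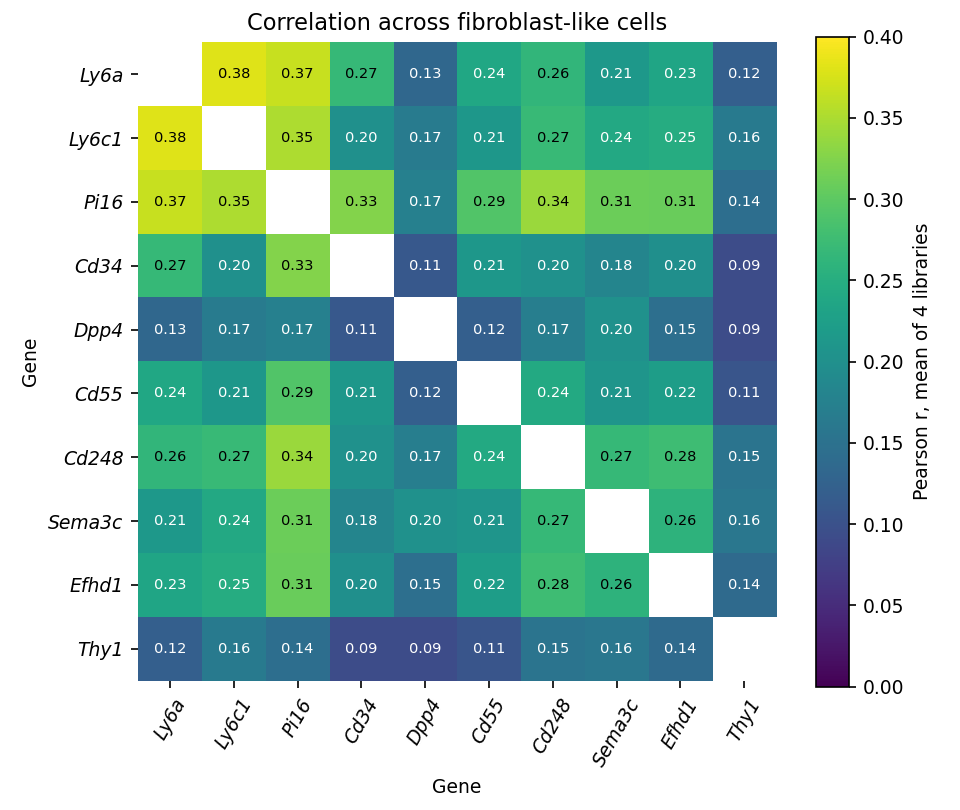
Pearson r between members across fibroblast-like cells thinned to 2000 UMIs, as the mean over the 4 libraries. The highest value is 0.380 for Ly6a with Ly6c1 and the lowest is 0.092 for Dpp4 with Thy1.

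The strength of the link is given by Pearson r across cells, on log values of thinned counts, as a description over cells that share a library. The mean r over the 4 libraries was highest for Ly6a with Ly6c1 (0.380, range 0.349 to 0.427), followed by Ly6a with Pi16 (0.366), Ly6c1 with Pi16 (0.351) and Pi16 with Cd248 (0.340). It was lowest for Dpp4 with Thy1 (0.092) and Cd34 with Thy1 (0.093), and 27 of the 45 pairs reached 0.2. Pi16 had the highest mean r to the other 9 genes, 0.290. Ly6c1 (0.248), Ly6a (0.246) and Cd248 (0.243) followed, and Dpp4 (0.147) and Thy1 (0.130) came last. The median of the 45 values was 0.211 at 2000 UMIs, 0.309 at 4000 and 0.402 without thinning, so these values depend on depth while the 45 directions did not.

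Counted per cell, the median fibroblast-like cell held 2 of the 10 genes in the ligated, undamaged tdTomato and PDGFRa libraries and 3 in the citrine library. At least 5 were seen in 9.09% of ligated, 12.7% of undamaged, 20.9% of citrine and 10.0% of PDGFRa cells. None was seen in 10.0%, 8.06%, 4.74% and 16.0%, which is 299, 178, 491 and 1975 cells. Cells with none were therefore not rare in the PDGFRa library at this depth.

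Among 3869 genes found in at least 5% of the thinned cells of every library, those most like Ly6a outside the members were Ifi27l2a (mean r 0.413, range 0.381 to 0.434), an interferon-induced gene, and Clec3b (0.296), a secreted plasminogen-binding lectin. Ackr3 (0.274), a scavenging chemokine receptor, Mfap5 (0.263), Crip1 (0.256), Gfpt2 (0.256), Pcolce2 (0.25) and Tmem100 (0.249) made up the 8. Ly6c1 and Pi16 ranked 2 and 3 for Ly6a among all genes. The genes most like Pi16 were Mfap5 (0.437, range 0.275 to 0.535), an elastic microfibril protein, Crip1 (0.341), Tmem100 (0.332), Ackr3 (0.324), Igfbp6 (0.302), Gfpt2 (0.299), Ifi27l2a (0.293) and Fbln2 (0.287). Both lists of 8 shared 6 genes, and each held 4 genes of the list of progenitor companions described next.

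To see which fibroblasts carry the members, a list of 20 progenitor companions (among them Anxa3, Mfap5, Fbn1, Gfpt2, Igfbp6, Ugdh, Ackr3, Tppp3, Clec3b, Dpt and Il33) was used to single out 1 cluster in each library. This was the fibroblast-like cluster with the highest median level of the list relative to the rest, called the companion cluster here. It held 321 ligated cells (10.3% of the fibroblast-like cells), 206 undamaged tdTomato cells (8.50%), 385 citrine cells (3.65%) and 523 PDGFRa cells (4.19%). Neither the members nor the companions entered the clustering, but genes that vary with them did, so the levels by cluster are a description. Members and companions were also chosen with earlier results of these data known, so the ranks below are not a test. Ranks of all other genes were not taken.

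The companion cluster ranked first among the 9 to 14 fibroblast-like clusters for 39 of the 40 pairs of a member and a library. Pi16 had 2795 CPM in it in the ligated library, against 572 in the other fibroblast-like cells. In the undamaged tdTomato, citrine and PDGFRa libraries Pi16 had 4780, 7393 and 3852 CPM in the cluster, against 899, 1309 and 445 CPM outside. Dpp4 had 36.0, 92.9, 147 and 124 CPM in the cluster against 1.47, 4.54, 13.9 and 8.79 CPM outside. The cluster held 73.6%, 69.4%, 34.7% and 36.4% of all fibroblast-like Dpp4 UMIs. The ratio of inside to outside ranged over the libraries from 10.6 to 24.6 for Dpp4, from 8.91 to 20.4 for Sema3c and from 7.56 to 16.6 for Efhd1. It was 5.65 to 10.1 for Ly6c1, 5.92 to 8.67 for Cd248, 4.88 to 8.65 for Pi16, 3.46 to 6.84 for Cd55 and 3.30 to 8.42 for Thy1. Ly6a (2.39 to 5.09) and Cd34 (2.02 to 3.23) had the lowest ratios.

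**Figure D3:**
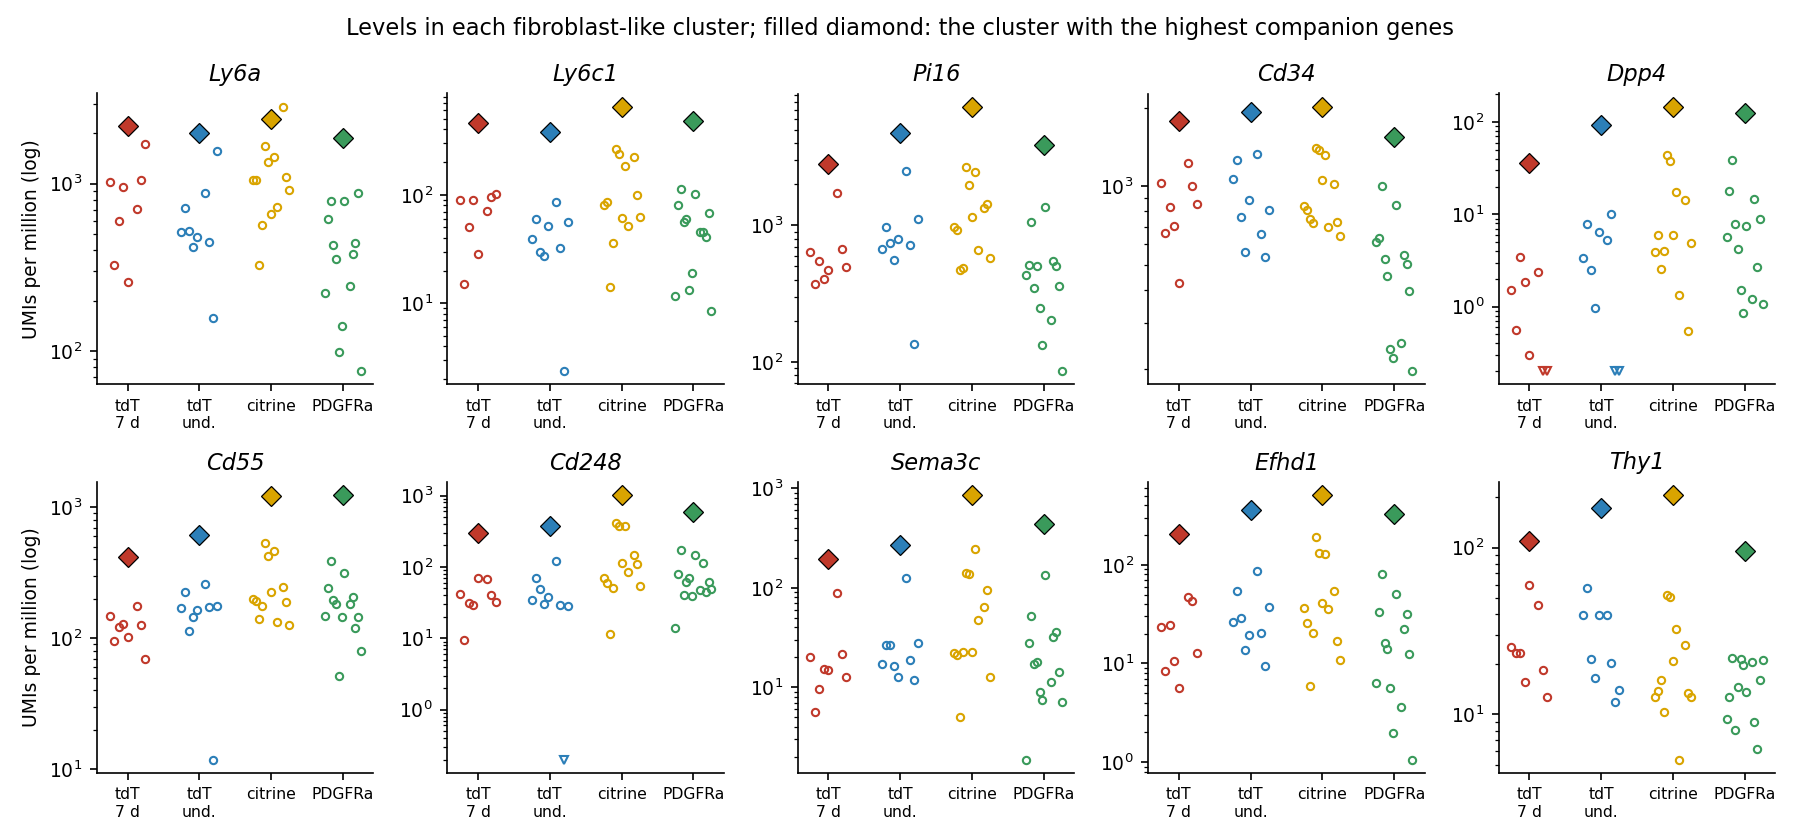
Level of each gene (CPM, log axes) in each fibroblast-like cluster of the ligated tdTomato (tdT 7 d), undamaged tdTomato (tdT und.), citrine and PDGFRa libraries. Filled diamonds are the companion clusters, circles the other clusters and triangles clusters with 0 UMIs; the diamond is on top for 39 of 40 pairs, the exception being Ly6a in the citrine library.

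Only Ly6a stood higher in another cluster than in the companion cluster, and only in the citrine library. Other members had high levels elsewhere too. Cd34, for example, had 1003 CPM in another PDGFRa cluster, against 1547 CPM in the companion cluster. In the citrine library a cluster of 295 cells led by the interferon-induced genes Ifit3, Rsad2 and Ifit1 had 2881 CPM of Ly6a, above the 2442 CPM of the companion cluster. Clusters led by genes of this kind had the highest Ly6a outside the companion cluster in the other libraries as well, at 1723 CPM in 37 ligated cells, 1577 CPM in 57 undamaged cells and 875 CPM in 331 PDGFRa cells. Pi16 had 496, 1115, 1329 and 359 CPM in these ligated, undamaged tdTomato, citrine and PDGFRa clusters, below its level in the companion cluster of each library. The next highest Pi16 outside the companion cluster in both tdTomato libraries was in clusters led by Cst6, with 1727 CPM in the 169 ligated cells and 2516 CPM in the 161 undamaged cells. At the other end, an undamaged cluster of 98 cells led by Wif1, a secreted Wnt inhibitor, had 159 CPM of Ly6a, 135 of Pi16 and 0 UMIs of Dpp4 and Cd248.

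The hashtags allowed the same view heart by heart. In the 3 citrine hearts the members had levels of the same order in fibroblast-like cells, with Ly6a at 1175, 936 and 1260 CPM in hearts 1, 2 and 3 (mean 1124 ± 168, SD, n = 3) and Pi16 at 1484, 1256 and 1914 CPM (1551 ± 334). Dpp4 had 20.8, 14.2 and 28.3 CPM (21.1 ± 7.09). Heart 3 was the highest for 9 of 10 members, and heart 2 the lowest for 6. The same counts were not made over all genes. Means of the others were 146 ± 33.9 CPM for Ly6c1, 968 ± 55.7 for Cd34, 318 ± 38.8 for Cd55, 194 ± 35.4 for Cd248, 112 ± 37.0 for Sema3c, 83.5 ± 12.8 for Efhd1 and 34.2 ± 12.9 for Thy1. The hearts gave 993, 2647 and 1648 cells, and 5247 fibroblast-like citrine cells had no clear tag and stayed out. Which heart was lowest depended on the tag threshold. With at least 90% of hashtag UMIs in 1 tag, Pi16 had 1122, 1160 and 1758 CPM in hearts 1, 2 and 3. Sema3c then had 69.4, 73.5 and 121 CPM, so heart 1 became the lowest for both genes. Heart 2 stayed the lowest for Ly6a, Ly6c1, Dpp4 and Thy1.

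Heart by heart, all 10 members were higher inside the companion cluster than outside it in 7 of 7 hearts, the PDGFRa hearts included. The hearts of a library were clustered together, and the members were chosen with earlier results of these data known. This count is therefore a description and not a test, and it was not made over all genes. In the citrine hearts Pi16 had 7971 ± 998.8 CPM inside and 1166.5 ± 142 outside (SD, n = 3), Dpp4 146 ± 20.5 and 13.4 ± 2.37, and Sema3c 903 ± 74.3 and 64.2 ± 8.38. Efhd1 had 525 ± 44.96 inside and 58.1 ± 9.004 outside, Cd248 988 ± 40.6 and 147 ± 16.4, and Thy1 219 ± 36.1 and 23.2 ± 7.62. Ly6a had 2643 ± 122 CPM inside and 1038 ± 132 outside. For each of these genes the gap was wider than the spread between hearts. The cluster's share of fibroblast-like cells was 3.93%, 2.04% and 7.40% in citrine hearts 1, 2 and 3. Its share was 1.99%, 4.02%, 4.70% and 5.24% for PDGFRa hashtags 1, 2, 3 and 4, in that order.

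**Figure D4:**
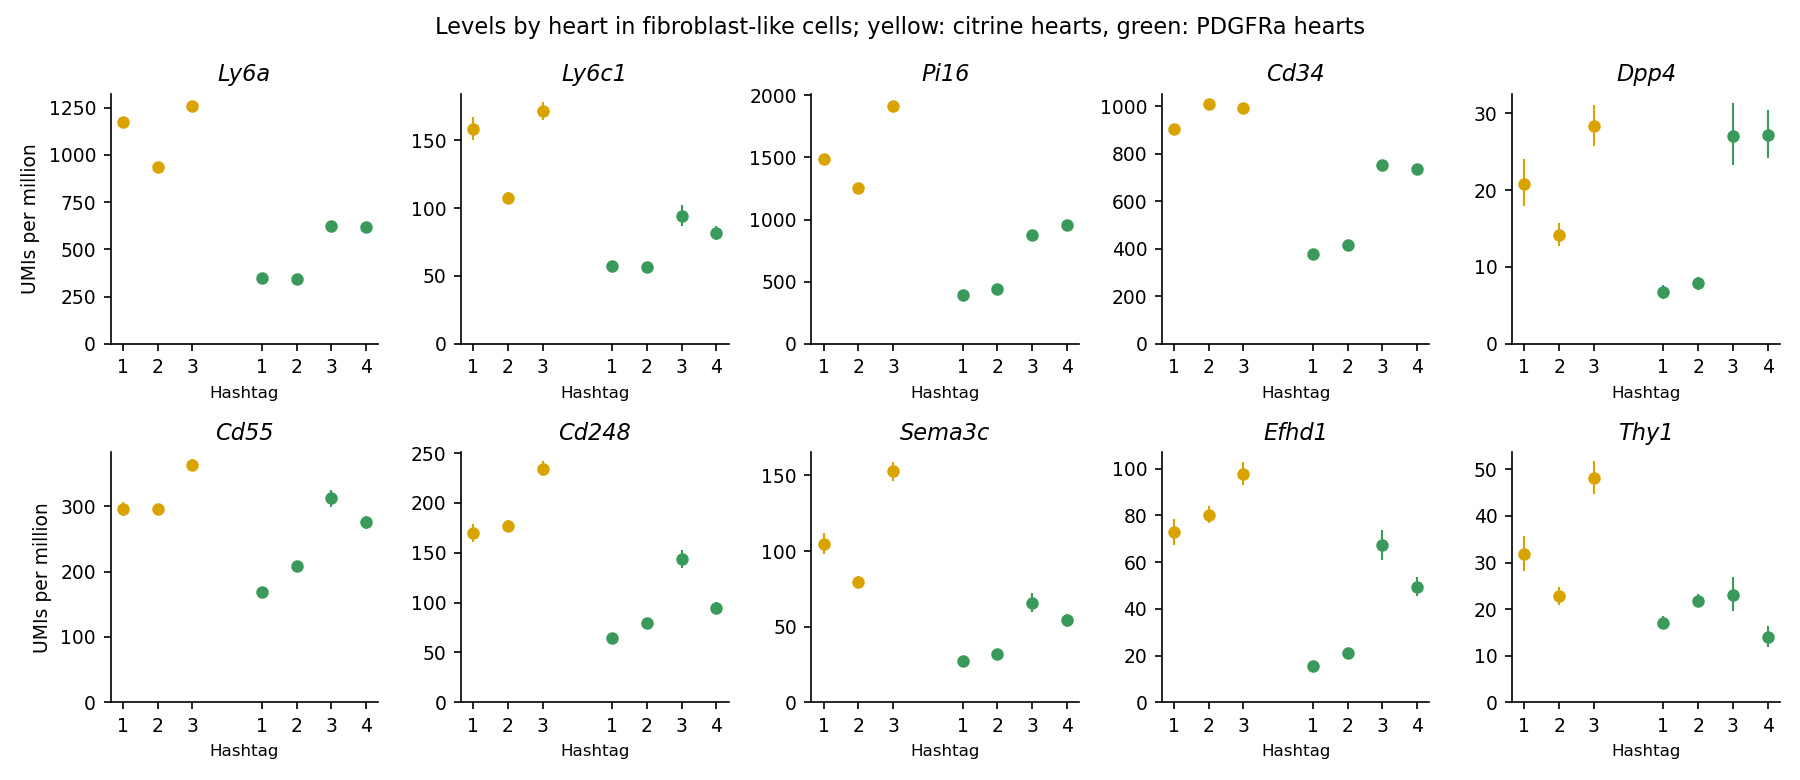
Level of each gene (CPM, linear axes from 0) in fibroblast-like cells of each hashed heart, with citrine hearts in yellow and PDGFRa hearts in green. Citrine heart 3 is the highest citrine heart for 9 of 10 genes, and Pi16 there is 1914 CPM.

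The question put to the tdTomato libraries was how these genes stand 7 days after ligation relative to undamaged hearts. In fibroblast-like cells 3 of the 10, Dpp4, Efhd1 and Pi16, were more than 1.5-fold lower after ligation and none was more than 1.5-fold higher, judged on log2 ratios with a pseudocount of 1 UMI. Over all 12278 genes with at least 20 UMIs, 11.6% were lower and 7.47% higher by that measure. The median log2 ratio was -0.39 over the members and -0.06 over all genes. Dpp4 had 72 UMIs (4.99 CPM) in ligated and 121 UMIs (13.4 CPM) in undamaged cells, a ratio of 0.373 (0.275 to 0.504). It was the only member past 2-fold, where 4.07% of all genes were lower and 2.81% higher. Efhd1 had 35.9 CPM in ligated and 66.4 CPM in undamaged cells, a ratio of 0.541 (0.480 to 0.609). Pi16, with 11531 UMIs in ligated and 11651 UMIs in undamaged cells, stood at 799 and 1287 CPM, a ratio of 0.621 (0.605 to 0.637).

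The other members stayed within 1.5-fold. Sema3c was closest to the limit, with a ratio of 0.679 (0.599 to 0.770), then Cd55 with 0.714 (0.671 to 0.759), Cd34 with 0.820 (0.798 to 0.843), Cd248 with 0.846 (0.768 to 0.932) and Thy1 with 0.861 (0.759 to 0.977). Both Ly6 genes lay on the other side of 1. Ly6a had 791 CPM in ligated and 719 CPM in undamaged cells (ratio 1.10, 1.07 to 1.14), and Ly6c1 had 96.8 and 77.3 CPM (1.25, 1.14 to 1.37). Sca-1 RNA and the RNA of its usual companion Pi16 thus had ratios on opposite sides of 1 in the same cells.

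The ratios were also taken separately inside and outside the companion cluster. Pi16 had 2795 CPM in the ligated and 4780 CPM in the undamaged cluster (ratio 0.585, 0.560 to 0.610), and 572 and 899 CPM outside it (0.637, 0.616 to 0.658). The ratio of Dpp4 was 0.387 inside and 0.323 outside, and that of Efhd1 0.576 and 0.487. All 10 members had ratios on the same side of 1 in both compartments, and the cluster's share of fibroblast-like cells was 10.3% in the ligated and 8.50% in the undamaged library. Thy1 had 0.634 (0.505 to 0.795) inside and 0.985 (0.845 to 1.15) outside.

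Several members were low in 1 ligated cluster. This group of 390 ligated cells led by H19, Ddah1, Thbs4 and Cthrc1, a gene induced in fibroblasts of the injured heart, had 260 CPM of Ly6a, 474 of Pi16, 427 of Cd34 and 5.61 of Efhd1. Without it the log2 ratio of Pi16 was -0.52 and that of Efhd1 -0.55, which ends both calls, while Dpp4 kept -1.05. Ly6c1 then reached 0.61 and was called higher, and Ly6a reached 0.41. Over all kept cells, whatever their class, Ly6a turned to -0.05. With cells thinned to 2000 UMIs the call of Efhd1 also ended, at -0.52. Beside these values, the 10 fibroblast markers summed to 47880 CPM in ligated and 86427 CPM in undamaged fibroblast-like cells, of which Gsn made up 18063 and 49830 CPM. The 10 pericyte markers summed to 576 and 414 CPM there, and the part of either in the members' ratios was not tested.

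**Figure D5:**
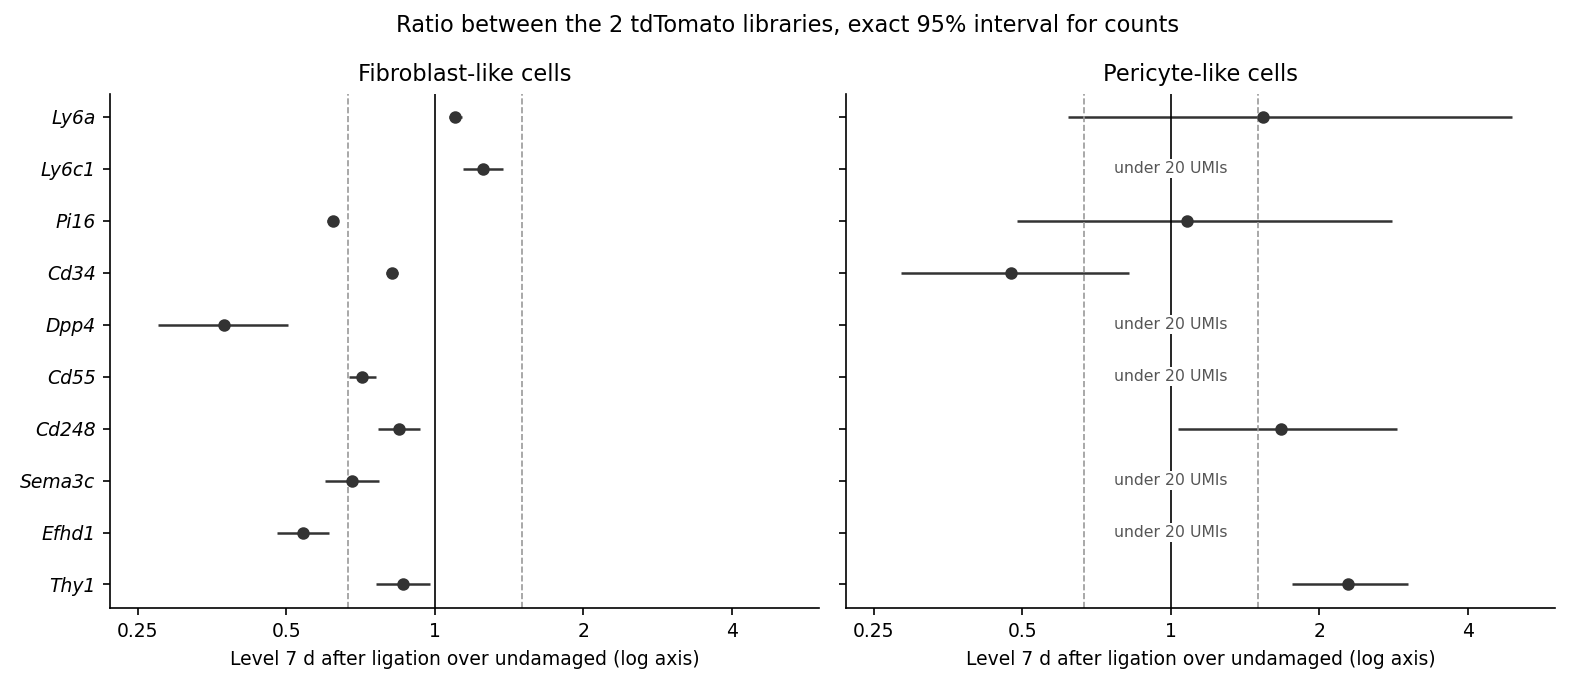
Ratio of the level 7 d after ligation to the undamaged level (log axis) in tdTomato fibroblast-like and pericyte-like cells, with exact 95% intervals for counts and dashed lines at 1.5-fold. In fibroblast-like cells Dpp4 (0.373), Efhd1 (0.541) and Pi16 (0.621) lie left of the lower line. In pericyte-like cells Thy1 (2.29), Cd248 (1.67) and Ly6a (1.53) lie right of the upper line, and Cd34 (0.474) left of the lower one. Ly6a was not called, since its log2 ratio with the pseudocount is within 1.5-fold.

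The companion list, like the members, had a median log2 ratio below that of all genes. It was chosen with earlier results of these data known, so its counts are a description. Of its 20 genes, 18 could be judged, 7 of these were lower and 0 higher after ligation, with a median log2 ratio of -0.46. Over all genes judged, 11.6% were lower and 7.47% higher. Clec3b had 1262 CPM in ligated and 2020 CPM in undamaged cells (ratio 0.625, 0.612 to 0.638). Ugdh, which makes the sugar for hyaluronan, had 203 and 318 CPM (0.639), Gfpt2, of the hexosamine pathway, 128 and 203 CPM (0.630), and Limch1 20.7 and 46.4 CPM (0.445). Emilin2, Dact2 and Opcml were the other 3.

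Of 25 further genes of the Ly6/uPAR family with a feature, 8 could be judged, with 1 higher and 3 lower and a median log2 ratio of -0.09. Shares over all genes judged were 7.47% higher and 11.6% lower. Ly6c2 was higher, with 38 UMIs in ligated and 5 UMIs in undamaged cells, a ratio of 4.77 (1.87 to 15.5). Since Ly6c2 has ends in common with Ly6c1, this count is uncertain. Cd59a, a complement inhibitor, had 8.32 and 18.99 CPM (0.438, 0.344 to 0.556) and Ly6k 7.00 and 21.8 CPM (0.322, 0.251 to 0.411). The third, Lypd1, had 22 UMIs in each library and an interval that holds 1 (0.331 to 1.19).

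Relatives and partners of the members gave 28 genes that could be judged, with 4 higher, 5 lower and a median of -0.05. These counts stand beside 7.47% higher and 11.6% lower over all genes judged. Ada, the enzyme that binds the Dpp4 protein in humans, had 15.1 CPM in ligated and 6.63 CPM in undamaged cells (2.28, 1.71 to 3.09). The semaphorin receptors Nrp2 (14.1 and 9.05 CPM, ratio 1.55) and Plxna1 (15.9 and 10.49 CPM, ratio 1.51) were higher, as was Glipr1, a CAP family relative of Pi16 (3.81 and 0.773 CPM). Clec14a, of the same lectin family as Cd248, was lower (6.45 and 17.1 CPM, ratio 0.377). Sema3d (7.35 and 14.9 CPM), Plxna4 (5.198 and 7.84 CPM), Crispld1 (4.16 and 11.8 CPM) and Mmrn2, a matrix ligand of Clec14a and Cd248, were lower too.

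In pericyte-like cells 5 members had at least 20 UMIs over both libraries, and 3 of these were past 1.5-fold. Thy1 and Cd248 were higher after ligation and Cd34 was lower, beside 11.4% higher and 23.5% lower among 8700 genes judged. Thy1 had 968 UMIs (442 CPM) in 778 ligated cells and 59 UMIs (193 CPM) in 180 undamaged cells, a ratio of 2.29 (1.76 to 3.03). It was the member past 2-fold upward, where 4.68% of all genes were higher. After thinning, Thy1 was seen in 52.5% of ligated and 28.6% of undamaged cells. Those shares cover only the thinned pericyte-like cells counted above for Ly6a, few of them undamaged. Thinning left out cells under 2000 UMIs, and the median undamaged pericyte-like cell had 1579.5 UMIs. Cd248 had 216 UMIs (98.7 CPM) in ligated and 18 UMIs (59.0 CPM) in undamaged cells, a ratio of 1.67 (1.03 to 2.88). Cd34 had 68 UMIs (31.1 CPM) in ligated and 20 UMIs (65.5 CPM) in undamaged cells, a ratio of 0.474 (0.285 to 0.825). With a log2 ratio of -1.13 it was past 2-fold downward, where 8.22% of all genes were lower. The median log2 ratio of all genes judged was -0.18. Centred on it, Thy1 had 1.35, Cd248 0.85, Ly6a 0.56 and Cd34 -0.95. The class totals were 2187690 UMIs in ligated and 305222 UMIs in undamaged cells. The pseudocount therefore pulls the ratio of a gene with few UMIs down in most cases. This median and the shares over all genes carry that shift, so the centred values are not a neutral correction. The call of Cd248 ended with cells thinned to 2000 UMIs (0.32) and at most 5% mitochondrial UMIs (0.53). The call of Cd34 ended when the ligated cluster of 2 classes was counted as pericyte-like (-0.07, an alternative chosen after seeing the data) and with the 4 libraries clustered together (-0.58).

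Ly6a had 55 UMIs in ligated and 5 UMIs in undamaged pericyte-like cells. Its plain ratio of 1.53 (0.619 to 4.91) passes 1.5, but with the pseudocount its log2 ratio is 0.38, so it was not called. Pi16 had 54 and 7 UMIs, a ratio of 1.08 (0.488 to 2.80). Relative to fibroblast-like cells, both stood within the range of the fibroblast markers in the ligated library and under it in the undamaged one. Neither interval leaves out 1. Cd34, called lower above, stood within that range in both libraries. It had 3.67% of its fibroblast-like level in ligated and 6.35% in undamaged cells. The other 5 members, Ly6c1, Dpp4, Cd55, Sema3c and Efhd1, had too few UMIs to judge.

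The ligated pericyte-like cells formed 2 clusters that differed in Thy1. A cluster of 282 cells led by Rgs16, with a median of 3662 UMIs per cell, had 578 CPM of Thy1 (534 to 624), and one of 496 cells led by Kcnj8, with a median of 1972 UMIs, had 305 CPM. Both lie above the 193 CPM of the undamaged cells (147 to 249). Without the Rgs16-led cluster the log2 ratio of Thy1 was 0.64, against 1.17 with it, and that of Cd248 was 0.73, against 0.67. Cd248 itself was at 95.1 CPM in the Rgs16-led and 102 CPM in the Kcnj8-led cluster. Beside these values, the pericyte-like cells had medians of 2319.5 UMIs in the ligated and 1579.5 in the undamaged library. The 10 fibroblast markers summed to 3623 and 6703 CPM in them, and the part of either was not tested.

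Over all genes judged in pericyte-like cells, 23.5% were lower and 11.4% higher after ligation. Of the lists, 4 of 10 companions that could be judged there were lower after ligation and 0 higher (median log2 ratio -0.18, as over all genes). These were Clec3b (ratio 0.327, 0.209 to 0.524), Dpt (0.373, 0.249 to 0.571), Opcml (0.366, 0.202 to 0.698) and Igfbp6. Igfbp6 had 27 UMIs in ligated and 5 UMIs in undamaged cells, with an interval that holds 1 (ratio 0.753, 0.286 to 2.51). Of 2 genes of the Ly6/uPAR family 1, Lynx1, was lower, with 46 and 9 UMIs and an interval that also holds 1 (0.713, 0.345 to 1.66). For Igfbp6 and Lynx1 the plain ratio is within 1.5-fold, and the call rests on the pseudocount. None of 16 relatives and partners passed 1.5-fold in either direction.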

How the data were processed

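Messenger RNA was counted in 4 single-cell libraries. The authors deposited UMI counts per gene and barcode, made with Cell Ranger on a modified mm10 genome, per the labels' protocols; Seurat 2.1 is named in the submitters' processing notes, and Cell Ranger 3.0.2 in the file headers of the citrine and PDGFRa libraries. The counts are whole numbers and are not normalised.

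A cell needed 500 genes and 1000 UMIs, of which no more than 10% mitochondrial. Clustering was done library by library (scale of 10000 UMIs, log values, 2000 variable genes, 30 components, 20 neighbours, Leiden resolution 1), without the members and the gene lists. No doublet caller was run. Classes were given to whole clusters by the share of fixed markers seen, with at least 3, and names end in "-like" because they rest on RNA alone. Cells with at least 70% of at least 20 hashtag UMIs in 1 tag were given to a heart. Software was scanpy 1.11.5, scikit-learn 1.9.0, leidenalg 0.10.2 and igraph 0.11.9, with pandas 2.3.3, scipy 1.17.1 and numpy 2.4.6 under Python 3.11.15, and matplotlib 3.10.9 for figures.

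UMIs were summed per class and divided by the class total. Ratios carry exact intervals for a pair of Poisson counts, shares exact Clopper-Pearson intervals, and limits for 0 UMIs are 3 counts. With 1 library per group there was no test between libraries. A gene with at least 20 UMIs in both sums together was called past 1.5-fold on log2 ratios with 1 UMI added. The ratio and its interval were checked on simulated data. All 10 members are named; other genes were named as the 8 most like Ly6a and Pi16, and as called genes of a list whose interval leaves out 1, the most abundant first; the others named were added to complete a list's calls. The members and lists were chosen with earlier results of these data known. Depth ranged from 9885698 to 122716283 UMIs per library.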

Additional observations from a re-analysis of the deposited data

Results flagged for a closer look

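Both genes below had a ratio above 1 in pericyte-like cells and below 1 in fibroblast-like cells of the same pair of tdTomato libraries. The ratio of ligated to undamaged Thy1 was 2.29 (1.76 to 3.03) in pericyte-like cells and 0.861 (0.759 to 0.977) in fibroblast-like cells. That of Cd248 was 1.67 (1.03 to 2.88) in pericyte-like and 0.846 (0.768 to 0.932) in fibroblast-like cells. With 1 library per group the difference between the classes was not tested. The pericyte-like values rest on 59 UMIs of Thy1 and 18 UMIs of Cd248 on the undamaged side.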

How the results depend on the processing

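Log2 ratios of Pi16, Dpp4 and Efhd1 in fibroblast-like cells were negative under all 12 alternatives, from -0.86 to -0.52, -1.54 to -0.77 and -1.07 to -0.52. In pericyte-like cells Thy1 was positive under all 12, from 0.64 to 1.44, and Cd248 from 0.32 to 1.90. Alternatives that change only the filter on counts (no filter, or at least 100 UMIs) leave a ratio unchanged by construction. Of 10 members, 3 were lower and 0 higher in fibroblast-like cells, beside 11.6% lower and 7.47% higher over all genes. Such shares were not taken for the alternatives below, apart from the 2-fold limit. Their counts therefore do not set the members apart. Over all kept cells, which adds pericyte-like cells, 5 were lower and 1 higher (Thy1, log2 ratio 0.86). Without the ligated Cthrc1-led cluster, an alternative chosen after seeing the data, 1 was lower and 1 higher. Past 2-fold, with all cells of the class, 1 was lower, beside 4.07% of all genes. In pericyte-like cells 1 was lower and 2 higher, beside 23.5% lower and 11.4% higher over all genes. There, 5 were lower with no filter on counts and 3 after thinning to 2000 UMIs. Of the 5, Dpp4 and Sema3c had 1 UMI each in ligated and 0 UMIs in undamaged cells. Both calls rest on the pseudocount. The count was 0 with at least 100 UMIs, with the 4 libraries clustered together, or without cells holding 2 UMIs of other cell types' lists. That last filter left out 624 of 778 ligated and 128 of 180 undamaged cells. With Fabp4, Esam and Tek off the lists it left out 12 and 0 cells. The count was also 0 with the ligated cluster of 2 classes. With that cluster, also added after seeing the data, 4 were higher. After thinning, at 5% mitochondrial UMIs, and past 2-fold, 1 was higher. Past 2-fold Cd34 was also lower, beside 4.68% of all genes higher and 8.22% lower. The count of lower genes there rests on 20 undamaged UMIs of Cd34. For these moves the cause was not tested, beyond the pseudocount and the fewer or added cells and genes that each alternative makes. The 45 pairs stayed at 45 at 4000 UMIs and without thinning. Leaving out 1 citrine heart moved the members' means by -20.3% to 16.7%. Of 40 citrine means, taken without 1 heart or at the 90% tag threshold, 4 moved by more than 1 SD. Of 210 levels, 70 moved beyond their counting interval, as did 32 of 174 log2 ratios. The 174 include ratios under a changed filter on counts, which could not move. No paired analysis was possible because each tdTomato group is 1 library. Depth limits Dpp4, at 72 and 121 UMIs in ligated and undamaged fibroblast-like cells, and 5 members in pericyte-like cells.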

Other observations

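The 4 PDGFRa hearts could not be assigned to ligated or undamaged, so their fibroblast-like levels are values only. For hashtags 1, 2, 3 and 4, Ly6a had 346, 342, 626 and 620 CPM, Ly6c1 57.0, 56.4, 94.4 and 81.7 CPM, and Pi16 393, 443, 872 and 960 CPM. Cd34 had 377, 416, 752 and 737 CPM, and Dpp4 6.74, 7.86, 27.1 and 27.1 CPM. The values of hashtags 1 and 2 were the lowest for 9 of the 10 members. How many of all genes split in this way was not counted, so this count does not set the members apart. Cd55 had 168, 208, 312 and 275 CPM, Cd248 64.3, 79.7, 143 and 94.5 CPM, Sema3c 27.6, 32.1, 65.8 and 54.1 CPM, and Efhd1 15.6, 21.1, 67.2 and 49.4 CPM. Thy1 was the exception, with 17.1, 21.8, 23.0 and 13.9 CPM. The hashtags were carried by 2815, 3557, 979 and 1642 fibroblast-like cells, with medians of 10057, 10612, 6580 and 6713 UMIs, and 3477 cells had no clear tag.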
